A study of Mus musculus with 12 samples.

Results

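Chemokines and their receptors were examined in macrophages of the mouse peritoneum, phagocytes that reside in the abdominal cavity. The set holds every protein-coding gene whose symbol is that of a chemokine ligand (Ccl, Cxcl, Cx3cl1, Xcl1, Pf4 and Ppbp) or of a typical or atypical receptor (Ccr, Cxcr, Cx3cr1, Xcr1, Ccrl2 and Ackr). It came to 64 genes of the 55586 in the count table, 40 ligands and 24 receptors. A gene was called expressed when its reads passed the default count filter of edgeR, silent when no library held more than 3 reads, and low otherwise. By this measure 32 of the 64 were expressed, 10 were low and 22 were silent, and 10 of the silent genes had 0 reads in all 12 libraries.

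Chemokines are small secreted proteins that draw leukocytes along a concentration gradient. They act on receptors with 7 membrane spans that couple to inhibitory G proteins, while atypical receptors bind ligand without that coupling and remove or present it. In macrophages some ligands are made steadily and others are induced by microbial products through NF-κB or by interferons through interferon regulatory factors, and Cxcl9 and Cxcl10 are standard readouts of the interferon gamma (IFN-γ) response.

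Total RNA was sequenced from peritoneal macrophages kept in culture medium with serum, in 12 libraries that form 4 groups of 3. Control cells had neither agent, the IFN-γ group had the cytokine that classically activates macrophages, the Remodelin group had Remodelin hydrobromide, an inhibitor of the acetyltransferase NAT10, and the combined group had Remodelin first and then IFN-γ. The labels give no strain, sex, age, dose, time or batch, and are silent on whether each library had its own culture or animal. All p-values are thus relative to the spread among these 12 libraries, which could be technical.

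Library totals ran from 15917454 to 19418665 reads. Levels are given as CPM, the read count scaled to the normalised library size, and between genes as the authors' FPKM, which also divides by gene length. A count of 3 reads, the floor used here, stood for 0.152 to 0.192 CPM, which covers counting error only. Control 1 and Remodelin 1 lay at the ends of the normalisation factors, at 1.10 and 0.898, and at the ends of the range of Ccl6, at 818 and 1546 CPM. The macrophage markers fixed for the label check summed to 15020 to 25300 CPM, and 9 of the 10 passed the count filter. The exception was Timd4, a marker of resident macrophages, with at most 3 reads in any library. Library 1 of the combined group was close to Remodelin 1 for Ccl6, at 1539 CPM. Among macrophage markers that library had the lowest Csf1r (103.3 CPM) and Cd68 (1103 CPM) and the highest Adgre1 (199.6 CPM). The libraries labelled IFN-γ showed little of the usual response, as described with the comparisons below, so that group is named by its label throughout.

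The CC ligands that act on CCR1 and related receptors, which recruit monocytes and other leukocytes, made up most of the ligand reads, and all 5 were expressed. Ccl6, a CC ligand of rodent macrophages, had a mean of 636 FPKM, with 448 FPKM in control 1 and 902 FPKM in Remodelin 1 as the extremes. It alone held 55.4% to 65.1% of all ligand reads in a library, and together with its neighbour Ccl9 it held 77.3% to 82.6%. Ccl9 ranged from 97.7 to 154.0 FPKM. The macrophage inflammatory proteins Ccl3 and Ccl4 ranged from 46.9 to 64.3 FPKM and from 20.3 to 37.4 FPKM, while Ccl5, which also attracts T cells, stayed at 0.599 to 2.13 FPKM. The platelet factor Pf4, which macrophages also make, ranged from 82.2 to 152.3 FPKM and was close in level to Ccl9, whereas markers of megakaryocytes and platelets summed to 0.452 to 1.98 CPM and Gp9 and Gp6 had at most 3 reads in every library.

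Of the 4 monocyte chemoattractant proteins, the ligands of CCR2, 3 were expressed. Ccl2 ranged from 36.4 to 95.7 FPKM, Ccl7 from 23.8 to 57.4 FPKM and Ccl8 from 6.0 to 16.7 FPKM. The highest library of both Ccl2 and Ccl7 was Remodelin with IFN-γ 1, and in CPM it lay apart from the other 2 of its group, at 109.8 CPM against 53.3 and 53.9 CPM for Ccl2. Ccl12 was silent, with 15 reads in all.

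Among the CXC ligands, the homeostatic Cxcl16 and Cxcl14 had the highest means. Cxcl16, a membrane-bound ligand of CXCR6 and a scavenger of oxidised lipoprotein, had a mean of 20.6 FPKM. Cxcl14, a ligand of epithelia and fibroblasts, had 12.7 FPKM, the B cell attractant Cxcl13 had 4.62 FPKM, and the stromal ligand Cxcl12, which acts on CXCR4, had 2.95 FPKM. Of the neutrophil attractants that act on CXCR2, Cxcl5 had a mean of 6.17 FPKM, Cxcl1 had 4.0 FPKM and Cxcl2 had 0.428 FPKM, while Cxcl3 was low. Cxcl10, a ligand of CXCR3 on T and NK cells, had 0.728 FPKM.

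The remaining expressed ligands were at low levels. Ccl27a, a ligand of CCR10, had a mean of 1.75 FPKM, the eotaxin Ccl24 had 0.540 FPKM, the CCR4 ligand Ccl22 had 0.264 FPKM and the CCR9 ligand Ccl25 had 0.233 FPKM. Ccl27a has near-identical copies on chromosome 4, as do the Ccl21 genes, so the division of reads among such copies is uncertain.

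Receptors were fewer, and 6 of the 24 had a mean of at least 1 CPM. Ccr1, which binds Ccl3, Ccl6 and Ccl9, had the highest mean at 44.5 FPKM, from 32.1 FPKM in control 1 to 73.1 FPKM in Remodelin with IFN-γ 1. The atypical receptor Ccrl2, which binds the attractant chemerin, ranged from 30.1 to 39.0 FPKM, and Cxcr4, the receptor of Cxcl12, from 19.6 to 31.3 FPKM. Those 3 ranges overlap, so no order among them holds in every library, but each lies above the highest value of every other receptor. Cxcr1, a receptor for neutrophil attractants, lay lower, at 1.78 to 3.83 FPKM.

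A further 6 expressed receptors stood at or below 1.13 FPKM in every library. Ccr7, which guides cells to lymph nodes, had a mean of 0.638 FPKM, Cxcr3 had 0.497 FPKM and Cxcr2 had 0.292 FPKM. Cxcr5, the receptor of Cxcl13, had 0.138 FPKM and the fractalkine receptor Cx3cr1 had 0.132 FPKM. Ccr2, the receptor of Ccl2 on inflammatory monocytes, had 0.106 FPKM and 5 to 25 reads per library, although its ligands Ccl2 and Ccl7 were among the more abundant genes of the set.

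**Figure D1:**
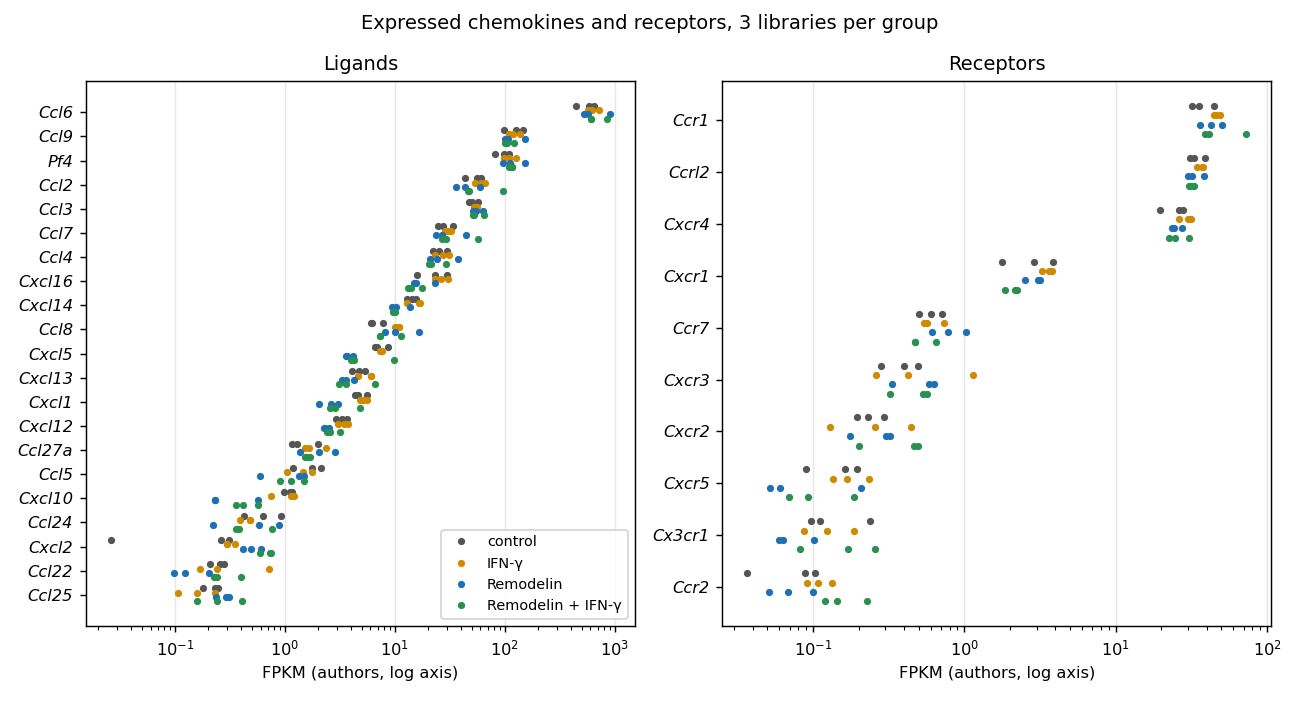
Levels of the 21 expressed ligands (left) and expressed receptors (right), in FPKM as the authors computed it, on a log axis. Each point is 1 library, coloured by group, and the genes are in order of their mean. Ccl6 lies above every other ligand, and Ccr1, Ccrl2 and Cxcr4 lie above the other receptors shown.

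The 10 low genes were the ligands Ccl17, Ccl20, Cxcl3, Cx3cl1 and Xcl1 and the receptors Ccr3, Ccr9, Ccr10, Ackr1 and Ackr3. The 22 silent genes included all 4 ligands of CCR7 (Ccl19, Ccl21a, Ccl21b and Ccl21d), which lymph node stroma makes, and the eotaxins Ccl11 and Ccl26. The other silent ligands were Ccl1, Ccl12, Ccl27b, Ccl28, Cxcl9, Cxcl15, Cxcl17 and Ppbp. Silent receptors were Ccr1l1, Ccr4, Ccr6, Ccr8, Cxcr6, Xcr1, Ackr2 and Ackr4. The genes with 0 reads in all 12 libraries were Ccl1, Ccl19, Ccl21a, Ccl21b, Ccl21d, Ccl26, Cxcl15, Ccr1l1, Ccr4 and Ccr8. Cxcl11, the third ligand of CXCR3, is annotated in the table as a polymorphic pseudogene and so lies outside the set, and it had 0 reads.

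The first comparison asked what IFN-γ did to untreated cells, and no chemokine or receptor passed the test. Cxcl9 had 2, 1 and 0 reads in the control libraries and 0, 0 and 2 reads in the libraries labelled IFN-γ, so it stayed at or below the floor in all 6. Cxcl10 was at 2.68, 2.55 and 2.23 CPM in control and at 1.70, 2.72 and 2.63 CPM in the libraries labelled IFN-γ. The ranges overlap, and the log2 fold change was -0.08 ± 0.32 (SE, n = 3 libraries per group). Of the 32 expressed genes 0 were called at an adjusted p under 0.05 (edgeR quasi-likelihood test, Benjamini-Hochberg over the 13474 genes tested), where 0.0148% of all tested genes, 2 genes, were called. At an unadjusted p under 0.05, where 5.37% of all tested genes fell, there was 1 gene, the CCR2 ligand Ccl8 (log2 fold change 0.68 ± 0.27, adjusted p = 0.889). DESeq2 also called 0. Of the 32 log2 fold changes 26 were positive, with a median of 0.19, beside 0.00 over all tested genes.

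The same held for other standard targets of IFN-γ. The transcription factor Irf1 differed by 0.12 ± 0.17 on the log2 scale between the libraries labelled IFN-γ and control (adjusted p = 0.949) and the feedback inhibitor Socs1 by -0.33 ± 0.29 (adjusted p = 0.909). Gbp2, a guanylate-binding protein that IFN-γ induces, was at 6.78, 7.49 and 6.19 CPM in control and at 7.98, 8.48 and 8.76 CPM in the libraries labelled IFN-γ. With Remodelin it was at 6.09, 6.34 and 6.59 CPM, and with both agents at 11.9, 10.4 and 11.1 CPM. Every library labelled IFN-γ was thus above every library of its matched group without it, but the average log2 difference of 0.56 ± 0.12 did not pass (unadjusted p = 0.0002985, adjusted p = 0.27).

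**Figure D2:**
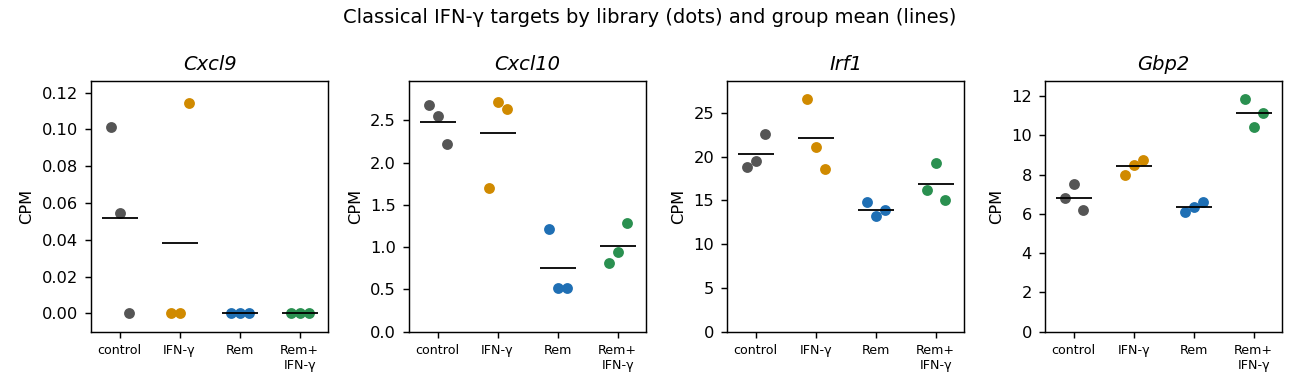
CPM of 4 standard IFN-γ targets in each of the 12 libraries (points) with the mean of each group (lines); Rem stands for Remodelin, each panel has its own axis and that of Cxcl9 starts just below 0. Cxcl9 is at or near 0 in all groups, the means of Cxcl10 and Irf1 are lowest in the 2 groups with Remodelin, and Gbp2 is highest in the 3 libraries with both agents.

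With Remodelin present, IFN-γ again gave 0 of 32 calls, where 0% of all tested genes were called. At an unadjusted p under 0.05, where 7.74% of all tested genes fell, there were 4, all with higher values with IFN-γ. They included the receptors Ccr2 (1.21 ± 0.45) and Cx3cr1 (1.19 ± 0.55) and the ligand Cxcl5 (0.68 ± 0.28), with adjusted p = 0.636 to 0.641, and for Cxcl5 library 1 of the combined group lay apart, at 18.6 CPM against 8.04 and 7.51 CPM. Averaged over cells with and without Remodelin, the IFN-γ effect was called for 0 of 32, where 0.00742% of all tested genes were called, and 3 had an unadjusted p under 0.05 beside 12.9% of all tested genes, among them Ccr2 (0.88 ± 0.32, adjusted p = 0.328) and Ccl22 (0.84 ± 0.39, adjusted p = 0.378). In all of these IFN-γ comparisons DESeq2 also called 0.

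The second question was what Remodelin did, and here Cxcl10 had the largest fall of the 32 expressed genes. In counts it had 53, 47 and 41 reads in control, 30, 48 and 46 with IFN-γ, 19, 9 and 9 with Remodelin, and 13, 18 and 22 with both. In CPM the Remodelin libraries were at 1.22, 0.519 and 0.520, and those with both agents at 0.812, 0.939 and 1.28. All 6 libraries with Remodelin were below all 6 without it. Cxcl10 fell by 1.73 ± 0.37 on the log2 scale with Remodelin against control (adjusted p = 0.032, edgeR) and by 1.47 ± 0.25 on average over both levels of IFN-γ (adjusted p = 0.00297). In cells given IFN-γ the difference was -1.21 ± 0.35 (adjusted p = 0.138).

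Cxcl10 was the single member called for Remodelin against control. That is 1 lower and 0 higher of 32, where 0.653% of all tested genes were lower and 0.193% higher. At an unadjusted p under 0.05 there were 7 of the 32, beside 12.7% of all tested genes. The Cxcl10 call was lost in 7 of the 12 fits that left out 1 library (adjusted p up to 0.135). Those were the fits without control 1, 2 or 3, without IFN-γ 2 or 3, or without Remodelin 2 or 3, and the log2 fold change stayed between -2.25 and -1.53. It was also lost with the replicate number as a block and in a fit of the 2 groups alone. The average effect kept its call in all 18 alternatives. Since all of these comparisons share libraries, they are not independent of each other.

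With Remodelin and IFN-γ against IFN-γ alone 0 of 32 were called, where 0.364% of all tested genes were, and 7 had an unadjusted p under 0.05, beside 16.2% of all tested genes. The differences nearest to the threshold were those of Cxcl14 (-0.65 ± 0.17, adjusted p = 0.0973) and Cxcl16 (-0.83 ± 0.22, adjusted p = 0.102). DESeq2 called 3 here, Cxcl14 and Cxcl16 among them, and both were also among the 3 members under 0.05 in the authors' deposited table for this comparison, where Cxcl16 had a log2 fold change of -0.72 with an adjusted p of 0.000543. For Remodelin against control the authors' deposited table had 1 member under 0.05, Cxcl5, with a log2 fold change of -0.75 and an adjusted p of 0.0112. In the edgeR fit Cxcl5 was at -0.97 ± 0.28 (adjusted p = 0.12). The authors' deposited table listed 0 members under 0.05 for either IFN-γ comparison.

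The effect of Remodelin did not differ detectably between cells with and without IFN-γ. The interaction was called for 0 of 32 (0.00742% of all tested genes), and DESeq2 also called 0. At an unadjusted p under 0.05, where 2.3% of all tested genes fell, there were 2 genes, Ccl8 (-1.06 ± 0.37) and Cxcr1 (-0.79 ± 0.37), each with an adjusted p that rounds to 1. With 3 libraries per group the interaction test cannot show that the effects are equal. The Remodelin difference of Ccl8 was 0.76 ± 0.27 against control and -0.31 ± 0.26 in cells given IFN-γ (adjusted p = 0.226 and 0.568, edgeR). The average over both levels of IFN-γ was used for the Remodelin effect, with 6 libraries on each side, and it can hide such differences. By that average 5 members were lower and 2 higher, where 4.8% of all tested genes were lower and 2.24% higher. At an unadjusted p under 0.05 there were 8 of the 32, beside 26.1% of all tested genes. Over the 32 members the median log2 difference was -0.08, beside 0.03 over all tested genes. All 5 of the lower genes were CXC ligands, and the 2 higher included the CXC ligand Cxcl2.

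**Figure D3:**
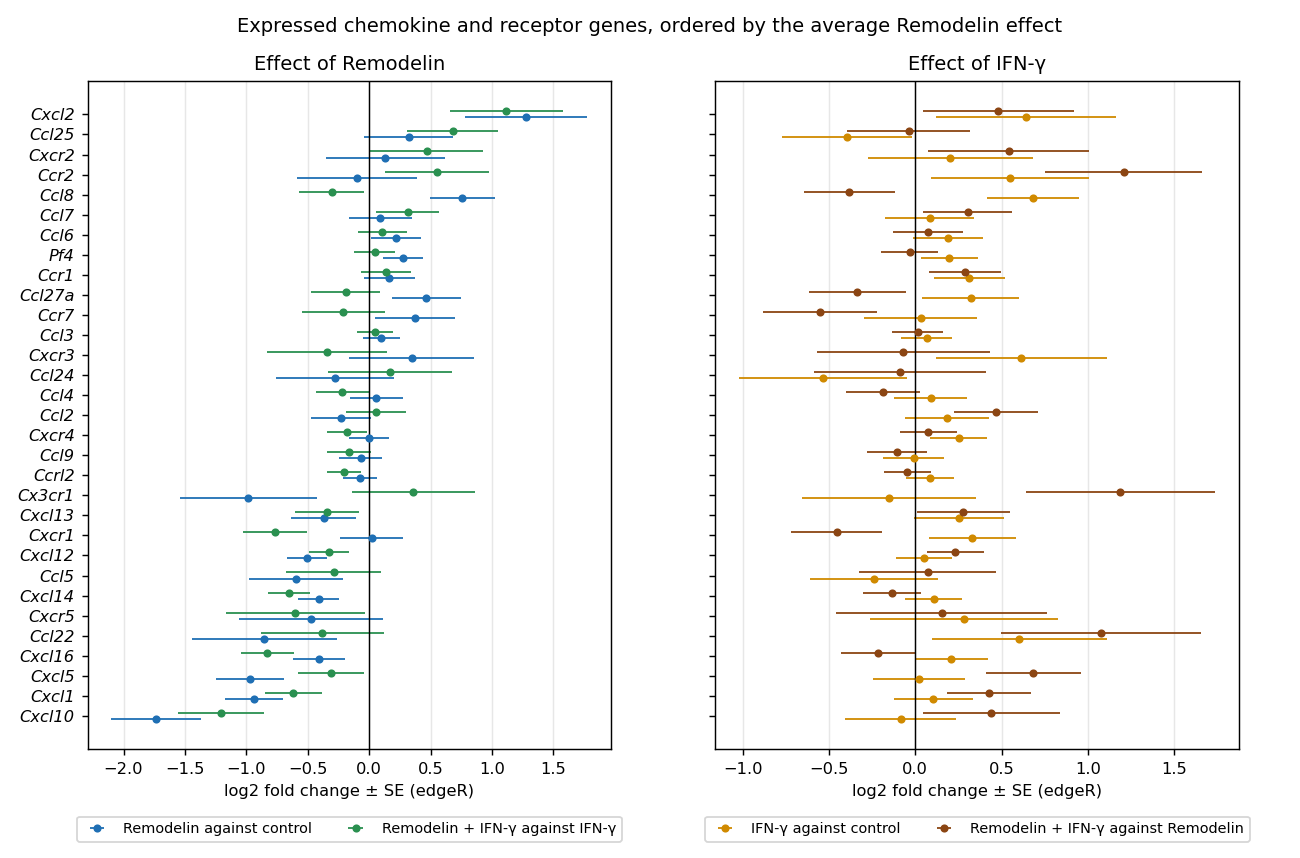
Log2 fold change with its SE from the edgeR fit for the expressed genes, in order of the average Remodelin effect. Left, Remodelin against control and Remodelin with IFN-γ against IFN-γ; right, IFN-γ against control and Remodelin with IFN-γ against Remodelin. Cxcl10 lies lowest on the left at -1.73 and -1.21 and Cxcl2 highest at 1.28 and 1.12, and on the right no gene passed the test.

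Of the neutrophil attractants, Cxcl1 and Cxcl2 moved in opposite directions. Cxcl1 was at 8.30, 8.80 and 10.4 CPM in control, at 9.79, 10.6 and 9.16 CPM with IFN-γ, at 4.74, 3.86 and 5.72 CPM with Remodelin, and at 9.06, 4.91 and 5.36 CPM with both. Without IFN-γ the groups with and without Remodelin did not overlap, while library 1 of the combined group lay within the range of the controls. Cxcl1 fell by 0.78 ± 0.17 on average (adjusted p = 0.012), a call kept in all 18 alternatives, and its difference against control alone was -0.94 ± 0.24 (adjusted p = 0.0804).

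Cxcl2 was near the limit of detection. It had 0.658, 0.0543 and 0.543 CPM in control, the second of these from 1 read, and 0.623, 0.622 and 0.744 CPM with IFN-γ. With Remodelin it had 0.961, 1.27 and 0.867 CPM, and with both 1.25, 1.57 and 1.51 CPM. All 6 libraries with Remodelin were above all 6 without it. Cxcl2 rose by 1.20 ± 0.34 on average (adjusted p = 0.0416), but the call was lost in 12 of 18 alternatives, 10 of them fits without 1 library, where the log2 difference ran from 0.94 to 1.44 and the adjusted p reached 0.112. Cxcl5, the most abundant of these 3, was at 16.4, 12.9 and 12.2 CPM in control and at 6.53, 6.75 and 7.86 CPM with Remodelin, which do not overlap. Its average difference of -0.64 ± 0.19 missed the threshold (adjusted p = 0.0527).

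The homeostatic ligands Cxcl14, Cxcl16 and Cxcl12 were lower by less. Cxcl14 was at 24.2, 28.8 and 26.3 CPM in control, at 30.3, 31.0 and 24.1 CPM with IFN-γ, at 23.8, 17.1 and 18.8 CPM with Remodelin, and at 18.6, 17.6 and 18.1 CPM with both. The 6 libraries with Remodelin were all below the 6 without it, Remodelin 1 by a small margin. It fell by 0.53 ± 0.12 (adjusted p = 0.0143), and the call was lost in 4 of 18 alternatives, among them the fits without control 2, IFN-γ 1 or IFN-γ 2 and the removal of the trend with GC content.

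Cxcl16 was at 49.1, 91.5 and 70.4 CPM in control, at 80.1, 92.5 and 71.3 CPM with IFN-γ, at 67.1, 45.0 and 46.9 CPM with Remodelin, and at 42.5, 54.4 and 40.0 CPM with both. Control 1 lay inside the range of the Remodelin libraries. The gene fell by 0.62 ± 0.15 (adjusted p = 0.0232), and the call was lost in 7 of the 12 fits without 1 library, with adjusted p up to 0.087. These were the fits without control 2, IFN-γ 1, IFN-γ 2, Remodelin 2, Remodelin 3, or library 1 or 3 of the combined group.

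Cxcl12 was at 30.3, 27.4 and 23.8 CPM in control, at 30.9, 25.1 and 28.5 CPM with IFN-γ, at 18.1, 18.6 and 20.6 CPM with Remodelin, and at 26.2, 20.1 and 21.1 CPM with both. The Remodelin libraries lay below every control, and library 1 of the combined group lay within the control range. It fell by 0.42 ± 0.12 (adjusted p = 0.039), and the call was lost in 10 of 18 alternatives, 8 of them fits without 1 library, with adjusted p up to 0.121. The fits that lost it were those without control 2, any of the 3 IFN-γ libraries, Remodelin 2 or 3, or library 2 or 3 of the combined group. Its receptor Cxcr4 was not called, with an average difference of -0.09 ± 0.12.

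**Figure D4:**
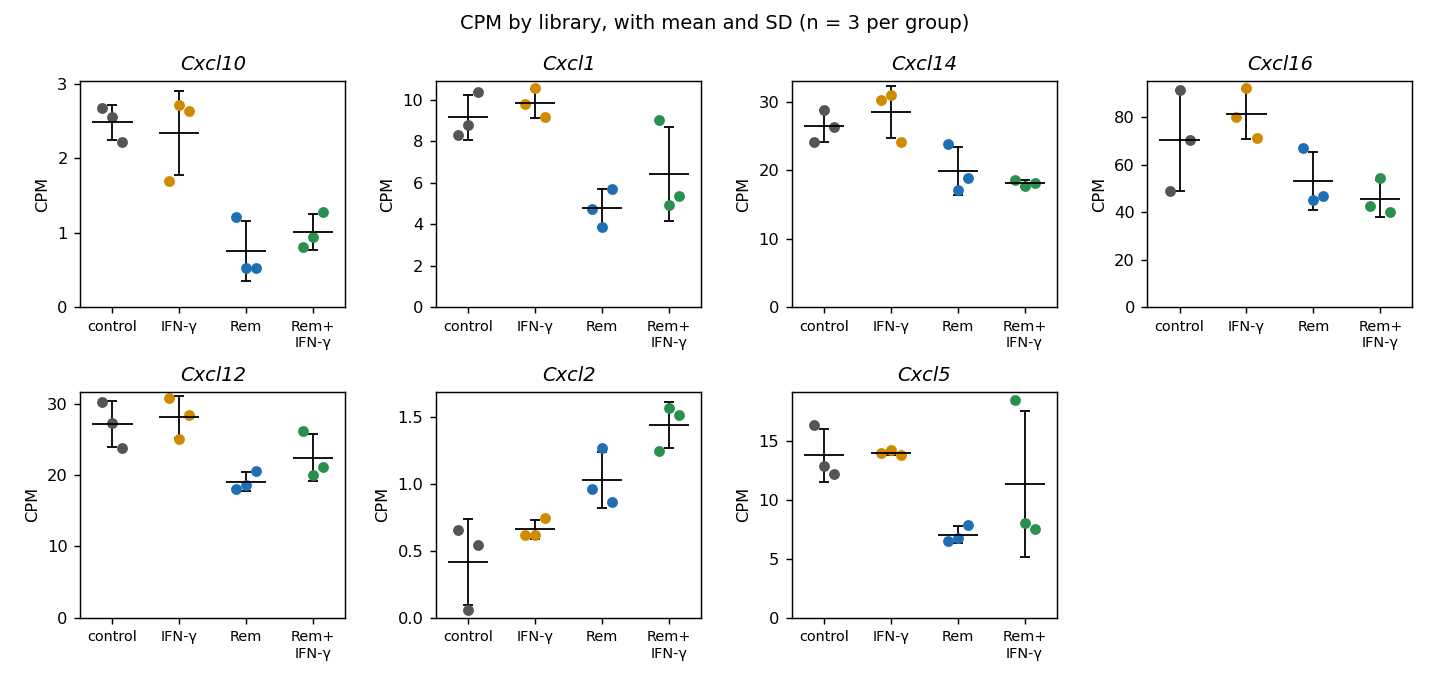
CPM in each library (points) with the mean and SD of each group of 3 (lines and bars) for 6 of the 7 genes called in the average Remodelin effect and for Cxcl5; Rem stands for Remodelin and each axis starts at 0. Cxcl10 and Cxcl14 are lower and Cxcl2 is higher in all 6 libraries with Remodelin than in all 6 without it, and the other panels overlap.

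The 3 genes whose Remodelin and other libraries did not overlap, Cxcl10 and Cxcl14 lower and Cxcl2 higher, compare with 3.42% of all tested genes that were lower and 1.24% that were higher by that measure. The abundant ligands Ccl6, Ccl9, Ccl3 and Pf4 had average Remodelin differences of 0.17 ± 0.14, -0.12 ± 0.12, 0.07 ± 0.10 and 0.16 ± 0.12, and none was called. Ccl4 (-0.08 ± 0.15) and Ccl5 (-0.44 ± 0.27) were not called either. For the abundant receptors the values were 0.15 ± 0.15 for Ccr1 and -0.14 ± 0.10 for Ccrl2, also not called.

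Among the genes below the count filter, Ccl20, the ligand of CCR6, was singled out after its values were seen. It had 4, 4 and 8 reads in control and 4, 5 and 7 with IFN-γ, against 0, 0 and 0 with Remodelin and 0, 0 and 1 with both. The sums were 32 reads without and 1 read with Remodelin, a ratio of 0.0333 after scaling to library size (95% interval 0.000818 to 0.199, exact, counting error only). With no count filter it was called in the average Remodelin effect (adjusted p = 0.00269). The scavenging receptor Ackr3 had 47 reads without and 14 with Remodelin, a ratio of 0.318 (0.161 to 0.587), and was not called in that fit (adjusted p = 0.0893). The low ligand Xcl1 had 9, 5 and 7 reads in control and 0, 0 and 2 with IFN-γ. It had 0, 1 and 0 reads with Remodelin and 0, 5 and 0 with both. In the fit with no count filter Xcl1 was not called against control, for IFN-γ (adjusted p = 0.644) or for Remodelin (adjusted p = 0.201).

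The upstream sequences of Cxcl10, Cxcl1 and Cxcl2, the 3 expressed genes described with the largest called average Remodelin differences, are shown because they are textbook targets of NF-κB, and Cxcl10 of interferon. These are the 250 bases before the RefSeq start of each gene in build GRCm38.p6, all on chromosome 5, written 5′ to 3′ on the strand of the gene. Capitals mark matches to the interferon-stimulated response element (ISRE, GAAANNGAAA) or to the kappaB consensus, searched on both strands. The windows are chr5:92348890-92349139 on the minus strand for Cxcl10, chr5:90890995-90891244 on the plus strand for Cxcl1 and chr5:90903649-90903898 on the plus strand for Cxcl2.
Cxcl10: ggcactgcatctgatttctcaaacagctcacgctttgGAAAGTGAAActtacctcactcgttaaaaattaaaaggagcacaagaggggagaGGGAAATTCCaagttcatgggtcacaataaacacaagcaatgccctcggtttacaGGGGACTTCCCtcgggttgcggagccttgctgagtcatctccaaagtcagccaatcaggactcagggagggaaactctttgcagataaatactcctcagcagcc
Cxcl1: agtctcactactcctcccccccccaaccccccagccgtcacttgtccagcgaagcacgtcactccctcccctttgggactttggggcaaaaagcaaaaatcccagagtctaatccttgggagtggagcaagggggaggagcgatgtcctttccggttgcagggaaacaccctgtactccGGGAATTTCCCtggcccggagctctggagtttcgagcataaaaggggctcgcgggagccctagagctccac
Cxcl2: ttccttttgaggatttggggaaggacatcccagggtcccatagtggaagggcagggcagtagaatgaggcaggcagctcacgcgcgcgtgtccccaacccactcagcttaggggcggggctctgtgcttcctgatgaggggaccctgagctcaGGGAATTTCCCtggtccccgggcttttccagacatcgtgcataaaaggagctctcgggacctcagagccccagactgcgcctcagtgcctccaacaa

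In Cxcl10 the ISRE match spans bases -213 to -204 from the start, and kappaB matches span -159 to -150 and -104 to -94, the latter from overlapping matches on the 2 strands. In Cxcl1 and in Cxcl2 the match is made of the same letters, at -71 to -61 and at -97 to -87. The starts of these 2 genes lie 12654 bases apart on the same strand, and their levels moved in opposite directions with Remodelin. Of the 32851 mouse windows, each searched over the same 250 bases, 2.98% held an ISRE match and 7.25% a kappaB match. A window was at hand for 50 of the 64 genes and 22 of the 32 expressed, and some genes had several, which made 59 windows. ISRE matches stood in 3 of the 59 windows and kappaB matches in 12 of the 59. By gene these were 3 of the 50 and 2 of the 22 (Cxcl10 and Cxcl14) for the ISRE, and 12 and 6 for kappaB.

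Genes that act with chemokines were read from lists, to be set against the 4.8% of all tested genes that were lower and the 2.24% that were higher in the average Remodelin effect. Of 31 tested genes of receptor signalling, 1 was higher and 1 lower in the average Remodelin effect, namely Rgs1, which shortens G protein signals (0.60 ± 0.16), and Gnai2, the inhibitory G protein subunit (-0.44 ± 0.11). Those counts are near the shares over all tested genes. The median of that list was -0.07, beside 0.03 over all tested genes. Among 19 tested genes that cleave, bind or present chemokines 5 were lower and 0 higher, beside 4.8% and 2.24% over all tested genes. They were the proteases Mmp9 (-1.24 ± 0.17) and Mmp8 (-1.30 ± 0.18), which trim chemokines, and the heparan sulfate proteoglycans Sdc4 (-0.53 ± 0.10), Sdc1 (-0.47 ± 0.12) and Sdc3 (-0.54 ± 0.14). The list median was -0.18.

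Among 24 transcription factors of chemokine genes, Fos was higher (0.63 ± 0.13) and Bcl3, an NF-κB cofactor (-0.49 ± 0.12), and Irf1, which binds the ISRE (-0.47 ± 0.12), were lower, beside 2.24% higher and 4.8% lower over all tested genes. Irf1 was at 18.8, 19.6 and 22.5 CPM in control, at 26.6, 21.1 and 18.6 CPM with IFN-γ, at 14.8, 13.2 and 13.9 CPM with Remodelin, and at 16.2, 19.3 and 15.1 CPM with both. The Remodelin libraries lay below every control, and the range with both agents overlapped that with IFN-γ. Of 8 genes of the IFN-γ receptor pathway, the receptor chain Ifngr2 (-0.41 ± 0.11) and the phosphatase Ptpn6 (-0.46 ± 0.10) were lower and 0 were higher, beside the same shares. For the average Remodelin effect DESeq2 called every gene of these lists that edgeR called, and also Jak2, Hif1a and Irf8. In edgeR these were at 0.59 ± 0.19, 0.55 ± 0.18 and -0.34 ± 0.11, with adjusted p = 0.0761, 0.0723 and 0.06155. Of the 82 tested genes of these 4 lists, edgeR and DESeq2 each called 0 for IFN-γ against control, with 3 at an unadjusted p under 0.05, beside 5.37% of all tested genes. They also called 0 for IFN-γ in cells given Remodelin, with 5 under 0.05 beside 7.74%, and 0 for the average IFN-γ effect, with 14 under 0.05 beside 12.9%.

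Markers of other peritoneal cells were read beside these values, and in bulk RNA fewer cells of a type and less RNA per cell cannot be told apart. Mesothelial and stromal markers, of cells that also make chemokines such as Cxcl1 and Cxcl12, summed to 429 to 743 CPM without and 324 to 533 CPM with Remodelin, and these ranges overlap. Of their 13 genes 5 were lower and 0 higher in the average effect, beside 4.8% and 2.24% of all tested genes, and none was at or below 3 reads throughout. The mesothelial membrane protein Upk3b was at 37.6 to 59.4 CPM without and 11.1 to 16.6 CPM with Remodelin. Mgp (13.0 to 18.9 and 4.21 to 5.89 CPM), Col3a1 (36.7 to 76.3 and 16.5 to 31.5 CPM) and Upk1b (10.1 to 16.1 and 7.2 to 9.8 CPM) did not overlap either. The markers did not all point one way. The keratin Krt18 was at 1.16 to 2.92 CPM without and 2.56 to 4.61 CPM with Remodelin, but these ranges overlap. Col1a2, Col1a1 and Dcn, the largest parts of the sum, overlapped as well.

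Neutrophil markers summed to 70.1 to 83.9 CPM without and 52.8 to 57.2 CPM with Remodelin, which do not overlap. Of the 5 tested 2 were lower, Mmp8 and Mmp9, and 0 higher, beside 4.8% and 2.24% of all tested genes. The other large members overlapped. S100a8 was at 14.6 to 26.9 CPM without and 13.4 to 22.9 CPM with Remodelin, and Csf3r at 21.9 to 27.5 CPM and 18.1 to 28.3 CPM. Ly6g and Ngp had 3 reads or fewer in every library. Mast cell markers summed to 4.18 to 5.47 CPM without and 1.67 to 3.58 CPM with Remodelin, which also do not overlap, with Mcpt4, Fcer1a and Ms4a2 at 3 reads or fewer. Each of the 3 tested, Tpsb2, Cma1 and Hdc, did overlap, and 0 were called in the average effect, beside the same shares. The sums overlapped for the other types. They were 65.3 to 78.8 CPM without and 49.8 to 74.1 CPM with Remodelin for B cells, 11.7 to 13.5 CPM and 9.18 to 11.9 CPM for dendritic cells, 104 to 205 CPM and 118 to 225 CPM for T and NK cells, and 75.8 to 114 CPM and 46.2 to 133 CPM for endothelial and lymphatic cells. Single genes made up most of 3 of these sums. For T and NK cells it was Il7r, at 100.1 to 222.4 CPM over the 12 libraries. Cd3e, Ncr1, Nkg7 and Gzma had 3 reads or fewer in every library. For endothelial and lymphatic cells it was Vwf, at 44.02 to 129 CPM, while Lyve1 had 3 reads or fewer and Pecam1 had 20 in all. For B cells it was Cd22, at 37.34 to 63.38 CPM. Of the 6 B cell genes tested 1 was lower and 0 higher in the average effect, beside the same shares. The B cell gene Ighm was at 10.4 to 15 CPM without and 5.13 to 7.51 CPM with Remodelin, which do not overlap. In the dendritic, T and NK, and endothelial and lymphatic lists 0 were called. The part of these other peritoneal cells in the chemokine values was not tested.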

How the data were processed

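Gene expression was measured by RNA sequencing of total RNA from 12 libraries of mouse peritoneal macrophages. The authors deposited raw read counts per gene, per the file headers, together with FPKM values and, for their own comparisons, log2 fold changes and adjusted p-values. The submitters' processing notes name featureCounts 1.5.0-p3, HISAT2 2.0.5 and CASAVA 1.8, with no role or order. Build, annotation and strand setting were not given in the sources used here, so no coordinates of the table are printed and reads of overlapping antisense genes cannot be told apart.

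Groups and replicate numbers came from the labels. The deposited counts of all 12 libraries were fitted together in R 4.3.3 with edgeR 4.0.16 (quasi-likelihood test, TMM factors). Its default filter by group kept 13474 of 55586 genes. Benjamini-Hochberg adjustment ran over all tested genes, with calls under 0.05, and the test was checked on simulated counts. Values after ± are SE, and CPM used TMM-scaled totals. Comparisons were the 4 between groups, both average effects and the interaction. Every called gene is described, the other expressed genes by level, and the rest by class, except that some items are not reported here. The genes and lists were chosen with earlier results of these data known. Alternatives were DESeq2 1.42.0, DESeq2 size factors, no count filter, a replicate block, the compared groups alone, removal of each library's trend with GC content, and each library left out in turn. Leaving out control 1 and Remodelin 1 together was added after seeing the data. Promoter windows are from RefSeq, matched by symbol.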

Additional observations from a re-analysis of the deposited data

How the results depend on the processing

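All 7 comparisons were refitted under the alternatives, and no called gene changed direction in any of them. The counts of called members for IFN-γ in control cells, in cells given Remodelin and on average, and for the interaction, stayed at 0 throughout. For Remodelin against control, where 1 member and 0.846% of all tested genes were called, the count was 3 with no count filter (1.16% of all genes), 3 with the GC trend removed (1.4%), 2 with DESeq2 (1.7%), 0 in a fit of the 2 groups alone (0.17%) and 4 without both control 1 and Remodelin 1 (13.6%), a choice made after seeing the data. It ran from 0 to 3 without 1 library. For Remodelin in cells given IFN-γ, where 0 and 0.364% of all tested genes were called, it was 1 with no count filter (1.11%), 1 in a fit of the 2 groups alone (0.64%), 3 with DESeq2 (2.3%) and 4 without both of those libraries (3.4%), and 0 to 2 without 1 library. For the average Remodelin effect, where 7 and 7.04% of all tested genes were called, it ran from 2 to 7 without 1 library, while the share of all genes ran from 2.17% to 14.2%. It was 2, Cxcl1 and Cxcl10, without control 2, IFN-γ 1 or IFN-γ 2, 3 without Remodelin 2 or 3, and 4 without IFN-γ 3 or library 3 of the combined group. The cause of these shifts was not tested, and the fits without a library had fewer samples. With replicate number as a block the counts were 0 for Remodelin against control (0.43% of all genes) and 4 for the average Remodelin effect (4.29%), where Cxcl1, Cxcl10, Cxcl14 and Cxcl16 were called. Same-numbered libraries had correlations of deviations from -0.547 to 0.261 over 18 pairs, beside -0.318 to 0.415 over 36 other pairs. These ranges overlap and show no pairing by number, but with 3 libraries per group they cannot exclude it. Depth limits the silent genes: at 3 reads or fewer, below 0.192 CPM, no difference between groups was detectable.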
